A study of Mus musculus with 12 samples.

Results

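Arhgap35 and Arhgap5 encode p190A and p190B, the p190 pair of RhoGAPs (proteins that activate the GTPase of RhoA and its relatives), and were followed over all 12 libraries of a mouse motor neuron study in which Arhgap35 was the gene knocked out. The deposited tables hold Arhgap35 under 2 names, its current symbol and the older symbol Grlf1 (RefSeq lists Grlf1, p190A and p190RhoGAP as synonyms), so that 3 of the 30740 entries in the tables belong to the pair. The members were chosen by these symbols and not by a threshold on their values, but earlier results of these data were known. Arhgap35 and Grlf1 were examined separately and as a sum, since the sum is the level of the gene over both entries.

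RhoA and the related small GTPases switch between a GTP-bound active form and a GDP-bound inactive form. RhoGAPs speed the hydrolysis of GTP and so switch these GTPases off, and the p190 proteins are major RhoGAPs of the nervous system, where they act downstream of Src-family kinases and adhesion receptors on actin, axon outgrowth and guidance. The gene symbol Grlf1 dates from a report of p190A as a factor binding the glucocorticoid receptor gene, and Arhgap5 is its closest relative, with the same order of domains and a RhoGAP domain at the carboxyl end.

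Ventral spinal cord of CB6F1/J embryos at E12.5 (E for embryonic day) that carried the Hb9:GFP reporter was pooled, dissociated with papain and sorted by GFP. Hb9 is another name for Mnx1, whose promoter drives GFP in spinal motor neurons. The libraries were 5 control and 5 p190 knockout libraries of GFP-positive cells and 1 library of GFP-negative cells from each genotype, all sequenced as 50-base single reads of polyA RNA. Control libraries are titled wild type, but the protocol in the labels allows control littermates to be wild-type or p190+/-, and the sources used here do not give the number of heterozygous embryos in each pool. They do not name the deleted part of Arhgap35 either, so reads from the gene do not by themselves test the genotype. GFP-negative cells carry the label motor neuron as well, whereas the data set them apart. The summed level of 9 motor neuron markers (Mnx1, Isl1, Isl2, Lhx3, Lhx4, Chat, Slc18a3, Slc5a7 and Prph) was 1641 to 2132 TPM (transcripts-per-million values) in the 10 GFP-positive libraries and 65.0 and 59.0 TPM in control and knockout libraries of GFP-negative cells. Totals ran from 23.7 to 33.8 M estimated counts per library, at which 3 counts equal 0.0887 to 0.127 CPM (counts-per-million values). Separate litters or animals are not stated for the replicates, so a p-value here weighs a difference only against the spread among these libraries. In RNA from a sorted population, fewer cells of a type and less RNA per cell cannot be told apart.

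The coding sequences of the paralogues are related but far enough apart for short reads to separate them. On GRCm38 (the mm10 build), Arhgap35 lies on the minus strand of chromosome 7, from 16493719 to 16614993, and Arhgap5 on the plus strand of chromosome 12, from 52503972 to 52571975. Each has 6 coding exons, with 4497 coding bases in Arhgap35 and 4509 in Arhgap5, and 62.5% of 4359 aligned bases were identical. Coding exon 3 was the most alike, at 70.5%, and coding exon 4 the least, at 56.1%. Both are printed here because they show how close and how far apart the RhoGAP domain of the pair is, exon 3 carrying the codon of the catalytic arginine of that domain. Sequences are 5′ to 3′ on the coding strand, from the reference genome, and capitals mark the bases that differ between the genes.
Arhgap35 coding exon 3, chr7:16512408-16512485 (minus strand): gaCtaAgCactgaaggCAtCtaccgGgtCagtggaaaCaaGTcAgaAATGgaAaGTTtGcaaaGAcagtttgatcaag
Arhgap5 coding exon 3, chr12:52557489-52557566 (plus strand): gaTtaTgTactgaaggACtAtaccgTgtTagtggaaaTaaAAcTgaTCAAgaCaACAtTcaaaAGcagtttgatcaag
Arhgap35 coding exon 4, chr7:16511193-16511324 (minus strand): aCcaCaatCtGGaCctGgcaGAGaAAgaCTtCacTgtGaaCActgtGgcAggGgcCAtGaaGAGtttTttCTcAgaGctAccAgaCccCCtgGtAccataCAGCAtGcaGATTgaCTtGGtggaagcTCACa
Arhgap5 coding exon 4, chr12:52559968-52560099 (plus strand): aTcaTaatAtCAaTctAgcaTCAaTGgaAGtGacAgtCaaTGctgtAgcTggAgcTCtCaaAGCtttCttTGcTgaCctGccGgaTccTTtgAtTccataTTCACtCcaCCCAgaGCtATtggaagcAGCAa

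The exons have equal lengths in both genes, 78 bases for exon 3 and 132 for exon 4, with 23 and 58 mismatches. The longest identical run was 13 bases in exon 3 and 7 bases in exon 4. Over all annotated transcripts of both genes the longest shared run was 16 bases, and 0 words of 31 bases (the word length tested here) were shared, on either strand. Of the 31-base words of Arhgap35, 0.0656% also occurred in transcripts of another gene, and of those of Arhgap5 0.919% did. No exon of either gene overlapped an exon of another annotated gene. A 50-base read that matches without error could therefore belong to Arhgap35 or to Arhgap5, but not to both.

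The Arhgap35 and Grlf1 entries cannot be separated in that way. A count divided by its TPM is proportional to transcript length, and 950 genes with a single annotated transcript were used to put that ratio on a scale of bases. The ratio implied a length of 8393 bases for Arhgap35 in all 12 libraries and of 6251 bases for Grlf1 in the 11 libraries that listed it above 0. Of the 2 annotated Arhgap35 transcripts the shorter has exactly 6251 bases, and the longer has 8393 bases when its 3′ end is placed where RefSeq ends the gene, 754 bases short of the GENCODE end. These matches rest on length alone, as the sources used here do not name the transcript behind each entry. For Arhgap5 the implied length varied from 5047.3 to 5137.0 bases, with a median of 5118.9.

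**Figure D1:**
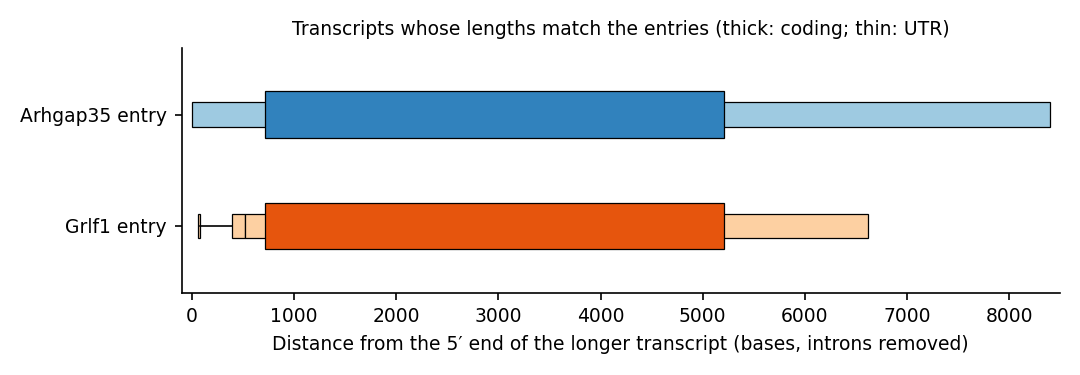
Transcripts whose lengths match the Arhgap35 and Grlf1 entries, drawn over the distance in bases from the 5′ end of the longer transcript with introns removed, with coding sequence as thick boxes and untranslated sequence as thin boxes. The coding sequence is the same in both, and the longer transcript adds 363 bases before it and 1779 bases after it.

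Under these matches both entries encode the same protein. Of the 6221 words of 31 bases in the Grlf1 transcript, 6194 (99.6%) were also in the Arhgap35 transcript, and the 27 others lay at a splice junction in the 5′ untranslated region. In the Arhgap35 transcript 2169 words of 31 bases were its own. What set the division of counts between the entries was not tested. The summed count does not depend on that division, whereas the summed TPM does, since a count given to the shorter entry adds more TPM, and the knockout sum was 46.6% of control by CPM and 44.4% by TPM.

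Arhgap35 and Grlf1 together were lower in every knockout library of GFP-positive cells than in every control library. The summed entries stood at 53.0, 79.8, 64.3, 77.6 and 49.4 TPM in control replicates 1 to 5. In knockout replicates 1 to 5 they stood at 27.2, 26.9, 30.97, 31.9 and 27.1 TPM. The groups did not overlap, the knockout libraries lay close together, and control replicates 1 and 5 were the lowest of the controls. With the entries apart, 0.315% of genes had all knockout libraries below all control libraries in CPM. That share was not computed by TPM or with the entries added. On the CPM scale, with library sizes scaled by TMM (trimmed mean of M-values), the mean and SD of the sum were 221 ± 43.6 CPM over the 5 control libraries and 103 ± 7.997 CPM over the 5 knockout libraries. That is a log2 fold change of -1.10 (standard error 0.128, 95% confidence interval -1.39 to -0.82), or 46.6% of the control level with an interval of 38.2 to 56.7%. The fall was called by the quasi-likelihood test of edgeR (adjusted p = 0.0274), where 0.0286% of genes were called lower.

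Replicate numbers were taken as a possible pairing, although the labels do not say what a number shares. The main fits and those with 1 library left out did not use that pairing. With the number as a block the sum kept its direction (log2 fold change -1.08) but not the call (edgeR adjusted p = 0.192), where 0.0172% of genes were called lower. By pair, the sum in the knockout library was 36.0 to 56.9% of that in the control library of the same number. Leaving out 1 library at a time, the call held without control replicate 1 (edgeR adjusted p = 0.0418) and without control replicate 5 (0.00488), and was lost in the other 8 cases, with adjusted p from 0.0910 to 0.151 and log2 fold changes from -1.14 to -1.02.

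Taken by itself, the Arhgap35 entry stood at 161, 201.9, 178, 187 and 135 CPM in control replicates 1 to 5. In knockout replicates 1 to 5 it stood at 98.6, 88.2, 103, 106 and 89.2 CPM. All knockout libraries were below all control libraries, as for 55 of the 17487 genes tested (0.315%). Arhgap35 fell by 0.83 on the log2 scale (standard error 0.0996, edgeR adjusted p = 0.0240), to 56.1% of control with an interval of 48.2 to 65.4%, and ranked 3 of 17487 by p. The block left the fold change at -0.82 and took away the call (edgeR adjusted p = 0.162). When 1 library was left out, only the fit without control replicate 5 called Arhgap35 (edgeR adjusted p = 0.000758), and the others gave 0.0562 to 0.141.

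Grlf1 showed the lower residual level of the entries and the wider spread. It stood at 23.6, 66.0, 47.0, 72.0 and 34.6 CPM in control replicates 1 to 5. In knockout replicates 2 to 5 it stood at 8.33, 8.12, 7.15 and 7.42 CPM, and it was listed at 0 in knockout replicate 1. The groups did not overlap in CPM, as for 55 of the 17487 genes tested (0.315%), and the knockout mean was 12.8% of the control mean. The log2 fold change was -2.96 (standard error 0.642, 95% confidence interval -4.43 to -1.50), with an unadjusted p of 0.00149, and missed edgeR's threshold over all genes (adjusted p = 0.9999). Without knockout replicate 1 it was -2.65 (edgeR adjusted p = 0.167), and with the replicate block -3.03 (0.590).

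**Figure D2:**
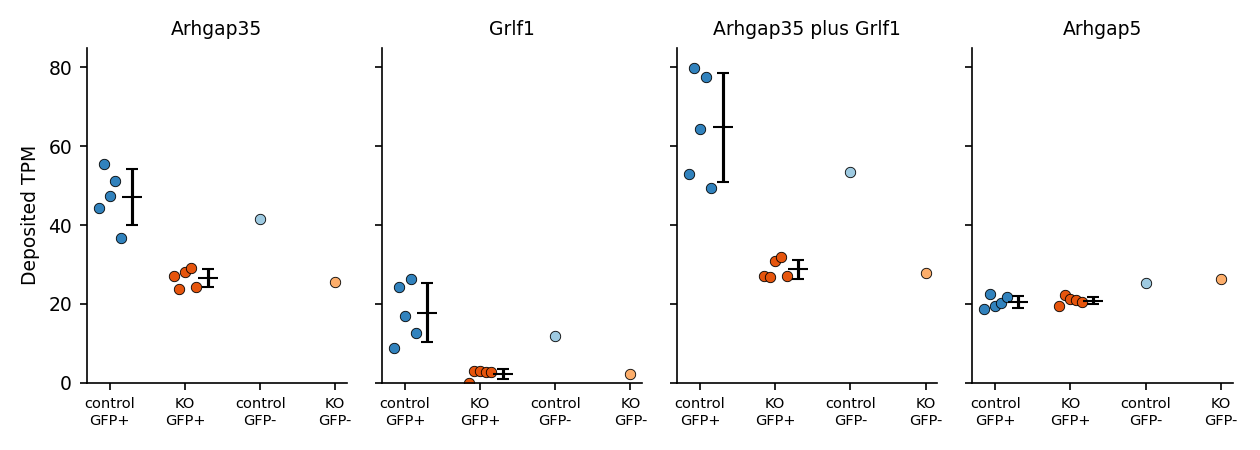
Deposited TPM of Arhgap35, Grlf1, their sum and Arhgap5 in each library (1 dot each) of control and knockout (KO) GFP-positive and GFP-negative cells, with the mean and SD of the 5 GFP-positive libraries beside the dots. The knockout dots of the sum lie between 26.9 and 31.9 TPM, below all control dots (49.4 to 79.8 TPM), while those of Arhgap5 lie among the controls.

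The division of the gene's counts between its entries also differed by genotype. Grlf1 took 12.8, 24.6, 20.9, 27.8 and 20.4% of the summed counts in control replicates 1 to 5, a mean of 21.3 ± 5.63% (SD, n = 5). In knockout replicates 1 to 5 it took 0, 8.62, 7.32, 6.34 and 7.68%, a mean of 5.99 ± 3.45% (SD, n = 5), or 7.49% without replicate 1. Every knockout share was below every control share, and GFP-negative cells had shares in the same order, at 17.6% in the control and 6.32% in the knockout library. No test was made of this share. Per unit of length the share was 26.6 ± 6.62% of the summed TPM in control and 7.84 ± 4.51% in knockout cells (SD, n = 5 each).

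**Figure D3:**
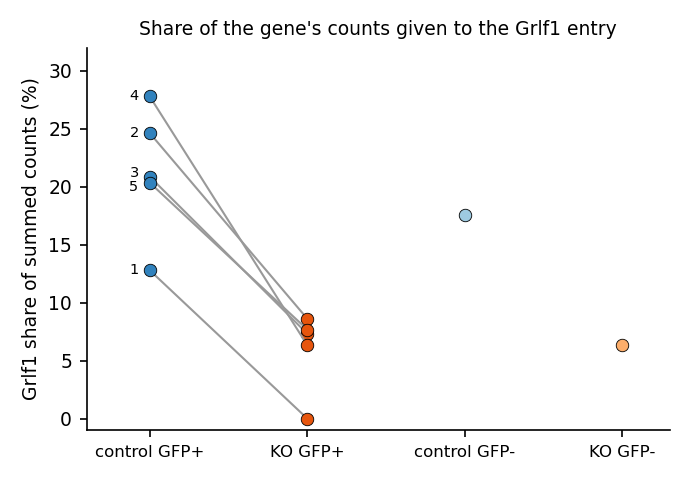
Percent of the summed Arhgap35 and Grlf1 counts that the Grlf1 entry holds in each library, with lines joining GFP-positive control and knockout (KO) libraries of the same replicate number (written at the left) and single dots for GFP-negative cells. All 5 lines slope down, from 12.8 to 27.8% in control to 0 to 8.62% in knockout cells.

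Control libraries varied more in the summed level than knockout libraries did. The coefficient of variation (SD as a percent of the mean, in CPM) was 19.7% in control and 7.76% in knockout libraries, while that of Arhgap5 was 7.11 and 5.29%. Among 10662 genes of at least 8 CPM, the median coefficient was 6.38% in control and 5.52% in knockout libraries, and that of the sum lay above 95.02 and 70.6% of these genes. No test was made of the difference in spread.

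Arhgap5, the remaining p190 gene, was not called between genotypes, and the interval around its control level was narrow. It stood at 18.8, 22.5, 19.5, 20.3 and 21.6 TPM in control replicates 1 to 5. In knockout replicates 1 to 5 it stood at 19.5, 22.2, 21.1, 20.96 and 20.5 TPM. The groups overlapped almost completely, with means of 45.8 ± 3.26 and 46.5 ± 2.46 CPM (SD, n = 5 each). The log2 fold change was 0.02 (standard error 0.0564, 95% confidence interval -0.10 to 0.14, edgeR adjusted p = 0.9999). Expressed as a percent of control, the interval was 93.3 to 110.6%, and with the replicate block the interval was 96.1 to 107%. By p, Arhgap5 ranked 11024 of 17487. Its fitted value is close enough to 0 to change sign when control replicate 1 (-0.01) or knockout replicate 2 (-0.004) is left out.

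**Figure D4:**
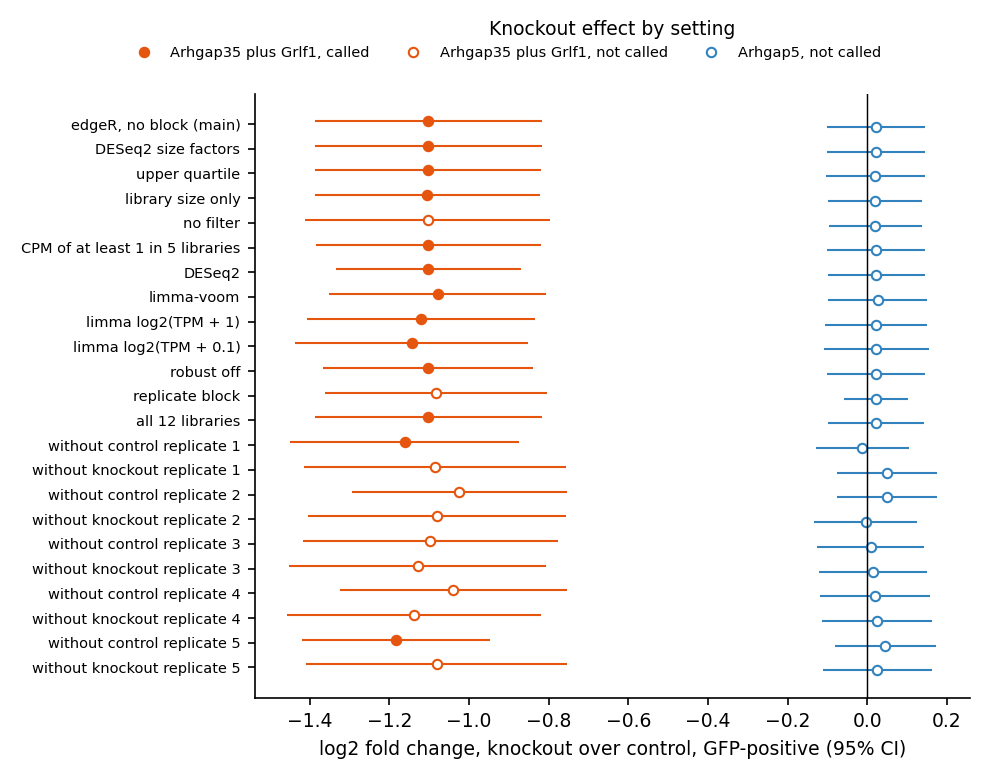
Log2 fold change of knockout over control in GFP-positive cells, with 95% confidence intervals, for Arhgap35 plus Grlf1 (orange, filled where the call was made) and Arhgap5 (blue) under each analysis setting and with each library left out. The intervals of the sum lie below 0 in every row, around -1.18 to -1.02, and those of Arhgap5 include 0 in every row, around -0.01 to 0.05.

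With the Arhgap35 entries lower and Arhgap5 not called, the ratio between the paralogues differed by genotype. Arhgap5 was 0.262 to 0.438 of the summed Arhgap35 and Grlf1 level in control libraries (mean 0.328 ± 0.0705, SD, n = 5) and 0.658 to 0.826 in knockout libraries (0.728 ± 0.0660, SD, n = 5), both as ratios of TPM. In every library of either genotype the summed Arhgap35 level remained above that of Arhgap5, GFP-negative cells included, where the ratio was 0.475 in the control and 0.942 in the knockout library. These ratios take the deposited TPM as they are, with the division between the entries, and the Arhgap5 entry may combine transcripts of unlike length.

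GFP-negative cells, with 1 library of each genotype, showed the same order of the genotypes. The summed entries stood at 53.4 TPM in the control and 27.97 TPM in the knockout library (188 and 103 CPM, or 54.8% of control by CPM). Arhgap5 stood at 25.4 and 26.4 TPM. A fit with 4 group means, which lends the 2 unreplicated groups the spread of the others, gave the knockout effect in GFP-negative cells minus that in GFP-positive cells. This difference in log2 fold change was 0.23 for the sum (95% confidence interval -0.46 to 0.92) and 0.03 for Arhgap5 (-0.26 to 0.32), and neither passed the test (edgeR adjusted p = 1 for both), where 0.0253% of genes were called. The interval for the sum is wide, so a moderate difference between the cell populations was not detectable with these libraries.

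Between the sorted populations, Arhgap5 was the member that differed. It stood at 41.5 to 49.3 CPM in control and 43.1 to 49.8 CPM in knockout GFP-positive libraries, against 57.9 and 60.1 CPM in GFP-negative cells of control and knockout embryos. All GFP-positive libraries were below both GFP-negative ones, but the share of all genes separated in this way was not computed. With genotype as a covariate Arhgap5 was lower in GFP-positive cells by a log2 fold change of -0.35 (standard error 0.0624, 95% confidence interval -0.49 to -0.22, edgeR adjusted p = 0.000211), or 78.2% of the GFP-negative level. In that comparison 31.8% of the 19763 genes were called lower and 61.3% had a larger fold change in size, so the difference is an ordinary one among these populations. It was -0.32 within control libraries (edgeR adjusted p = 0.0336) and -0.37 within knockout libraries (0.00466), and -0.48 with the replicate block. The summed Arhgap35 entries were not called between the populations (log2 fold change 0.12, 95% confidence interval -0.22 to 0.46, edgeR adjusted p = 0.531). The block turned the direction of the sum (log2 fold change -0.04, adjusted p = 0.858). Grlf1 alone had an interval of -1.46 to 2.00, too wide to set a direction.

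Markers of other cell types moved with the sort. Summed over 8 neural progenitor genes, the level was 594 to 745 TPM in GFP-positive libraries and 2846 and 3138 TPM in GFP-negative ones. Most of the GFP-positive sum was Vim, at 554 TPM in control GFP-positive and 1311 TPM in control GFP-negative cells. In the same groups Sox2 stood at 6.03 and 147 TPM and Hes5 at 4.22 and 122 TPM. Summed over 10 interneuron genes, the level was 50.3 to 207 TPM against 848 and 772 TPM, and over 6 erythroid genes 15.7 to 175 TPM against 754 and 1053 TPM. Their part in the lower Arhgap5 level of GFP-positive cells was not tested. Between genotypes the ranges overlapped in GFP-positive cells for all 8 marker lists examined, and the 9 motor neuron markers summed to 1641 to 2110 TPM in control and 1715 to 2132 TPM in knockout cells.

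In order of level, the summed Arhgap35 entries were highest in control GFP-positive cells (64.8 ± 13.9 TPM, SD, n = 5), followed by control GFP-negative (53.4 TPM), knockout GFP-positive (28.8 ± 2.41 TPM, SD, n = 5) and knockout GFP-negative cells (27.97 TPM). Neighbours within a genotype did not differ beyond the spread of the GFP-positive libraries. Arhgap5 ran in another order, from knockout GFP-negative (26.4 TPM) and control GFP-negative (25.4 TPM) to knockout (20.9 ± 0.984 TPM) and control GFP-positive cells (20.6 ± 1.54 TPM, SD, n = 5 each). The GFP-positive groups overlapped, and the GFP-negative values are single libraries. Among entries of at least 1 TPM, the sum stood above 78.8% in control and 60.0% in knockout GFP-positive cells, and Arhgap5 above 52.0 and 52.4%.

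Set among RhoGAP genes, the p190 pair was neither the most nor the least abundant. Ranked by mean TPM in control GFP-positive cells, the sum was number 10 of 58 RhoGAPs and Arhgap5 number 26. Arhgap33, a sorting-nexin RhoGAP of neurons, stood highest (261 ± 8.25 TPM), followed by Chn1, the Rac-directed chimaerin of axon guidance (217 ± 15.04 TPM), and Abr, a Rac-directed RhoGAP related to Bcr (149 ± 7.57 TPM, SD, n = 5 each). The range of the sum overlapped that of 8 other RhoGAPs, among them Bcr and Myo9b, and that of Arhgap5 overlapped 4, Arhgap44, Arhgap17, Chn2 and Dlc1. In knockout cells the sum was number 23 and Arhgap5 still number 26.

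**Figure D5:**
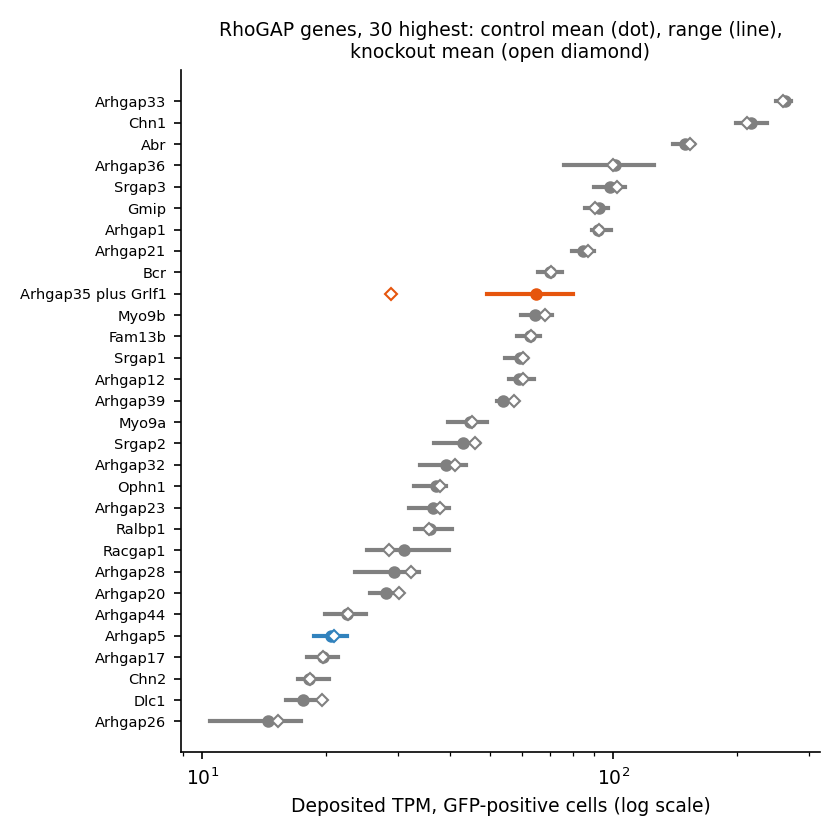
The 30 most abundant RhoGAP genes in GFP-positive cells by deposited TPM on a log axis, with the control mean (dot), the range of the 5 control libraries (line) and the knockout mean (open diamond). For Arhgap35 plus Grlf1 the diamond lies at 28.8 TPM, outside the control range of 49.4 to 79.8 TPM, and for Arhgap5 it lies on the control mean.

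The other genes of the pathway were examined from 5 lists: small GTPases of the RhoA, Rac and Cdc42 family, other RhoGAPs, guanine exchange factors for them (RhoGEFs, which switch them on), p190 partners and regulators, and RhoA effectors. Between genotypes edgeR called 0 members of each list, among 16, 51, 54, 13 and 19 tested, where 0.0343% of all genes were called. At an unadjusted p under 0.05 stood 0, 0, 1, 0 and 1 members, against 375 of all 17487 genes. DESeq2, limma-voom, limma on log2 TPM and edgeR with the replicate block also called 0 in every list. Median log2 fold changes lay from -0.0009 (small GTPases) to 0.01 (other RhoGAPs), near that of all genes (-0.002).

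RhoA itself, the main substrate of the p190 proteins, stood at 177 ± 7.03 TPM in control and 179 ± 3.66 TPM in knockout cells (SD, n = 5 each). Cdc42, Rac3 and Rac1 were the most abundant small GTPases of the list, at 521, 400 and 262 TPM in control and 541, 399.7 and 259 TPM in knockout cells. Rhoc and Cdc42 had the smallest p among them, with log2 fold changes of 0.16 and 0.05. In the other RhoGAPs it was Arhgap20 (0.11) and Arhgap6 (0.36), and in the RhoGEFs Arhgef1, which couples G proteins to RhoA (-0.12, unadjusted p = 0.0421), and Trio (0.10). All of these missed the threshold (edgeR adjusted p = 0.9999). Mcf2l, Arhgef1 and Arhgef2 were the RhoGEFs of highest level, at 213, 181 and 160 TPM in control and 218, 169 and 157 TPM in knockout cells.

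None of the partners that act on p190 proteins or bind them was called between genotypes. Gtf2i, whose product TFII-I binds p190A, stood at 219.5 and 214 TPM in control and knockout cells. Fyn, a Src-family kinase that phosphorylates p190A, stood at 168 and 172 TPM, and Gsk3b, another of its kinases, at 148 and 153 TPM. Ptk2, which encodes focal adhesion kinase (log2 fold change -0.05), and Rnd1, a GTPase that binds p190 proteins (-0.18), had the smallest p of the list. Downstream of RhoA, Cfl1, the actin-severing cofilin, was at 1967 and 1983 TPM, Myl12b, a myosin light chain, at 324.5 and 327 TPM, and Limk2, a cofilin kinase, at 285 and 283 TPM. Rhpn2, a RhoA-binding scaffold, had a log2 fold change of 0.49 (unadjusted p = 0.0313) and Myl12a one of 0.11, and both missed the threshold (edgeR adjusted p = 0.9999).

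Across the sort, the same lists did hold called genes. Higher and lower in GFP-positive cells were 6 and 6 of 18 small GTPases, 27 and 13 of 54 other RhoGAPs, 17 and 23 of 54 RhoGEFs, 2 and 8 of 13 p190 partners and regulators, and 9 and 5 of 19 RhoA effectors, where 30.1% of all genes were called higher and 31.8% lower. Arhgap36, which also acts on protein kinase A and Hedgehog signalling, and Arhgap25 were higher by log2 fold changes of 6.49 and 5.37, as were Rac3 by 2.19, Rhov by 1.75, Mcf2 by 4.05 and Farp1 by 1.47. Racgap1 and Ect2, partners in cytokinesis, were lower, with log2 fold changes of -2.93 and -3.81, and so were Syde1 at -3.04 and Arhgef39 at -4.75. Of the p190 partners, Rnd1 and Rnd3, relatives of RhoA without GTPase activity that bind p190 proteins, were lower at -2.22 and -1.76. These genes were named for the largest changes of their lists, so they give no measure of how the fold change of Arhgap5 (-0.35) compares with the other members.

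As a description of co-variation, log2 CPM values of the 10 GFP-positive libraries were taken as deviations from the genotype means and correlated with those of 10673 genes. Among the most alike for Arhgap35 were Atg2b (Pearson r = 0.973) and Efhd2 (0.934), and for Grlf1 Fam174a (0.911), Itga4 (0.908) and Dpysl5 (0.904). For Arhgap5 they were Pde4dip (0.980), Parp8 (0.956) and Ccdc106 (0.942). The libraries may be paired by replicate number, and the highest of many correlations over 10 libraries is high by selection. Arhgap35 and Grlf1, entries of 1 gene, had r = 0.079 with each other, Arhgap35 and Arhgap5 had r = -0.075, and Grlf1 and Arhgap5 had r = 0.574. All correlations of Grlf1 include knockout replicate 1, where it was listed at 0 CPM, against 7.15 to 8.33 CPM in the other knockout libraries. They were not computed without that library, so they may rest largely on it.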

How the data were processed

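PolyA RNA of 12 sorted libraries was analysed from the gene tables. The authors deposited estimated counts for each symbol without scaling, 39.2% of them whole. The authors also deposited TPM (transcripts-per-million values, scaled for length and depth), made with kallisto on mm10 per the submitters' processing notes. TPM columns sum to 974800 to 1018241. The version of kallisto and the joining of transcripts to symbols are not stated in these notes. Titles gave each column its sample, and 0 columns were left over. Replicates differed beyond counting noise (chi-square per degree of freedom from 7.92 to 24.3).

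Counts were rounded to whole numbers, filtered (filterByExpr by group), scaled by TMM and tested with edgeR 4.0.16 (robust quasi-likelihood F-test, R 4.3.3) over the whole table, with Benjamini-Hochberg adjustment and a threshold of 0.05. Genotypes were compared over the 10 GFP-positive libraries (17487 genes), and the sorted populations over all 12, adjusting for genotype (19763 genes). Log2 CPM values used a prior count of 2. Alternatives were other scalings, filters, DESeq2 1.42.0, limma 3.58.1 (voom, and log2 TPM with pseudocounts of 1 and 0.1), non-robust fitting, all 12 libraries, single genotypes, no genotype covariate, the replicate block and each library left out.

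Replicate numbers come from the sample titles. Deviations from the group means were correlated between control and knockout libraries over 10680 genes. Libraries of the same number had r = 0.193 to 0.591, and those of other numbers at most 0.206. Control replicate 3 was an exception, with r = 0.193 to knockout replicate 3 and 0.206 to knockout replicate 5. The numbers were therefore taken as a possible pairing. The main fits did not use it, and the number entered only as the block of an alternative fit. The labels do not say what libraries of 1 number share.

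Sequences and annotation come from GRCm38 and GENCODE M21, synonyms from RefSeq. Transcript lengths were calibrated on single-transcript genes with at least 100 counts in each library (47.8% within 0.5% of their annotated length). The pathway genes named are, per list, the 2 with the smallest p between genotypes, the 3 of highest control TPM, and up to 2 called genes per direction with the largest change in the sort at an average log2 CPM of at least 1; Rhoa, Bcr, Myo9b and the RhoGAPs that overlap Arhgap5 were named after their values were seen, and not all genes the rule gives are named. Genes alike in co-variation are the 3 of highest r among genes of average log2 CPM of at least 3, of which 1 is not reported here. The members and lists were chosen with earlier results of these data known. The 3-count floor covers counting error only.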

Additional observations from a re-analysis of the deposited data

Results flagged for a closer look

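Grlf1 in knockout replicate 1 of GFP-positive cells stood far from the other knockout libraries on all 3 scales. It was listed at 0 CPM, while the others lay between 7.15 and 8.33 CPM. In TPM it was listed at 0, against 2.65 to 3.02 TPM, and as a share of the summed counts at 0%, against 6.34 to 8.62%. The threshold for such a gap is passed by chance in about 1 of 20 groups, 20 groups of 5 libraries were examined in this way, and the 3 values are 1 measurement on 3 scales. The Arhgap35 entry of the same library, at 98.6 CPM, lay within the range of the other knockout libraries, and so did the sum.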

How the results depend on the processing

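The Arhgap35 entry kept its direction between genotypes under all 22 alternatives, but its edgeR call was lost with the replicate block (log2 fold change -0.82), without a filter on low counts (-0.84) and by limma on TPM, with a pseudocount of 1 (-0.79) or 0.1 (-0.81). Without single libraries it ran from -0.91 to -0.77 and was called only without control replicate 5. The sum lost its call with the block (-1.08) and without a filter (-1.10). Without single libraries the sum ran from -1.18 to -1.02 and was called only without control replicate 1 or control replicate 5. Arhgap5 was not called under any, with values of -0.012 to 0.050 without single libraries, negative without control replicate 1 (-0.012) and knockout replicate 2 (-0.004). Grlf1 was not called under any, at -3.14 to -2.65 without single libraries. The 6 genes called between genotypes became 11 with DESeq2, 0 and 3 by limma on TPM (pseudocount 1 and 0.1), and 0 to 8 without single libraries. In the sort, Arhgap5 stayed called at -0.48 to -0.31 under the 26 alternatives. Grlf1, called under none, turned negative in knockout libraries alone (-0.066), with a pseudocount of 0.1 (-0.12), with the block (-1.07) and without the control GFP-negative library (-0.067; -0.067 to 0.56 without single libraries), and the sum with the block (-0.043). By TPM the Grlf1 share in GFP-negative cells was 22.2% in the control and 8.31% in the knockout library, and without single libraries it was 19.7 to 23.4% in control and 5.33 to 7.49% in knockout GFP-positive cells, an alternative added after seeing the data. The block changed no other call among the members. In the sort, both GFP-negative libraries carry replicate number 1, so the blocked fit sets them only against the GFP-positive libraries of that number. Those held 184.7 CPM (control) and 98.6 CPM (knockout) of the sum, against 187.8 and 102.8 CPM in GFP-negative cells. For Grlf1 they held 23.6 and 0 CPM, against 33.0 and 6.50 CPM. The cause of the other changes was not tested.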
